A study of Mus musculus with 24 samples.

Results

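The step from embryonic stem (ES) cells to neuronal progenitors (NP) in mouse cells without REST was measured on 6 of the 24 arrays of the series, 3 of RESTko ES cells and 3 of RESTko NP, which were picked by their titles. ES cells are cultured cells of the early embryo that can form every tissue, and NP are the dividing cells that give rise to neurons. The RESTko cells carry the label Black Agouti 129 for strain. Their differentiation to NP followed a published protocol (Bibel and others), and total RNA was extracted with TRIzol, cleaned on RNeasy columns and read on Affymetrix whole-transcript arrays. The same stages of RESTwt cells of the same strain label, wildtype for REST, gave 3 arrays each, and a wildtype line of mixed 129Sv-C57Bl/6 background gave 2 arrays each on another array type. The remaining arrays hold terminal neurons (TN): 3 of RESTko and 3 of RESThet cells, the label for heterozygous, both of the first strain label, and 2 of the mixed-strain wildtype line. The RESTko and RESThet TN arrays enter the fit of all 6 groups, and levels are given further on for RESTko TN. The labels call the arrays a, b and c biological replicates without saying that they came from separate cultures, so a p-value reflects the spread among these arrays alone, which may be technical, and their small number limits its precision. Which part of Rest was deleted, and how many clones the RESTko arrays come from, is not given in the sources used here.

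REST, also called NRSF, is a zinc finger repressor that binds a DNA element called RE1 next to many neuronal genes and recruits CoREST, SIN3 and histone deacetylases. It is abundant in ES cells and declines as neurons form. In the protocol used here, ES cells grow as aggregates, are exposed to retinoic acid, and turn into progenitors with features of radial glia, the stem cells of the embryonic nervous system. Retinoic acid acts through nuclear receptors (RAR and RXR) that sit on direct repeats in the DNA, and it switches on Hox genes, which set the position of a cell along the body axis.

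Values are deposited log2 expression levels per probe set, and a step is the NP mean minus the ES mean, so that a step of 1 is a 2-fold rise. A gene was called when limma's moderated test over 19938 genes gave a Benjamini-Hochberg adjusted p under 0.05. Rest, the targeted gene, was measured first as a check of the labels. Its level was 8.63, 8.53 and 8.66 on the RESTko ES arrays and 7.43, 7.40 and 7.57 on the RESTko NP arrays, so that the stages did not overlap. Rest fell by 1.14 (SE 0.069, adjusted p = 7.56e-11 by limma), and in RESTwt cells it fell by 1.48 from 8.96 to 7.48. RESTko ES arrays thus still gave a Rest signal, and as 1 probe set reads the whole gene and the deleted part is unknown here, that signal checks neither genotype label.

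Within a stage, the RESTko arrays correlated at Pearson r of 0.9962 to 0.9977 (ES) and 0.9953 to 0.9971 (NP) across genes, and between stages at 0.8986 to 0.9149. The median level of all genes was 5.50 to 5.53 on ES arrays and 5.85 to 5.87 on NP arrays, so the deposited values are not centred alike across stages. NP array a stood apart for several genes that fall in the step. For example, Pou5f1, the core transcription factor of the pluripotent state, stood at 11.30, 11.26 and 11.34 on the ES arrays and at 6.06, 7.65 and 7.45 on the NP arrays, and Nanog, its partner factor, at 11.41, 11.27 and 11.21 and at 6.92, 8.62 and 8.37. On both genes NP array a was the lowest and all NP arrays lay below all ES arrays. For several gene lists the median step is given with and without it, while the steps of single genes include it. On leaving out single arrays, the step of Pou5f1 ranged from -4.55 to -3.75 and that of Nanog from -3.65 to -2.80.

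In RESTko cells, 13165 genes were called, which is 66.0% of the genes tested: 6413 rose (32.2%) and 6752 fell (33.9%). At least 2-fold, 2343 genes rose (11.8%) and 1471 fell (7.38%), 3814 in all (19.1%). These shares are the background against which the gene groups below are read: 32.2% and 33.9% for counts of called genes, 11.8% and 7.38% for 2-fold counts. The arrays of both stages did not overlap for 14282 genes (71.6%). Across all genes the median step was -0.043 and the median standard error 0.10.

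The split between rises and falls depends on how the arrays are scaled. With quantile normalization over all arrays 5953 genes rose and 7148 fell, and 1911 and 1681 did so at least 2-fold. With each array's median subtracted, which shifts every step by -0.34, 3977 genes rose and 12144 fell, and 1531 and 2797 did so at least 2-fold. Of the 3814 genes called at least 2-fold as deposited, 3813 were called in the same direction after quantile normalization and 3812 after subtracting the medians. A shift of -0.34 cannot turn a 2-fold step around, so the latter count was largely fixed in advance. Without NP array a, 12259 genes were called, 2272 of them at least 2-fold higher and 1400 at least 2-fold lower.

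The largest rise was that of Hoxa5, a Hox gene of the brainstem and upper spinal cord. Hoxa5 stood at 3.21, 3.40 and 3.19 on the ES arrays and at 10.70, 10.48 and 10.40 on the NP arrays, a step of 7.26 (SE 0.10, 153-fold, adjusted p = 7.01e-19 by limma). Hoxb2 and Hoxc5, also Hox genes, rose by 6.02 (SE 0.15) and 6.02 (SE 0.10). Dcx, doublecortin, a microtubule protein of migrating young neurons, went from 3.05, 3.12 and 3.18 to 9.92, 9.39 and 9.48. Its step was 6.49 (SE 0.16, adjusted p = 4.62e-16 by limma), and NP array a was the highest. Dach1, a nuclear cofactor of neural progenitors, rose by 6.70 (SE 0.11). Fabp7, a fatty acid binding protein of radial glia, was at 3.46, 3.24 and 2.96 in ES cells and at 9.35, 9.48 and 9.58 in NP. The stages lay far apart for Fabp7, with a step of 6.25 (SE 0.19).

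Retinoid genes made up part of the same group. Rarb, the retinoic acid receptor beta, was at 4.02, 4.02 and 3.99 in ES cells and at 10.70, 10.27 and 10.21 in NP, a step of 6.38 (SE 0.17, adjusted p = 2.29e-15 by limma). Dhrs3, which reduces retinaldehyde, rose by 6.20 (SE 0.18), Nr2f1, an orphan nuclear receptor also called COUP-TFI, by 6.18 (SE 0.14), and Meis2, a homeobox partner of Hox proteins, by 6.25 (SE 0.091). Completing the 12 largest rises were Epha3, an ephrin receptor of growing axons, at 6.36 (SE 0.13), and Glra1, a glycine receptor subunit, at 6.05 (SE 0.17). For each of these genes the 3 NP arrays lay above the 3 ES arrays.

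The deepest fall was that of Tdgf1, also called Cripto, the co-receptor of the growth factor Nodal. Tdgf1 stood at 12.06, 11.98 and 11.84 on the ES arrays and at 4.89, 5.69 and 5.58 on the NP arrays, and fell by 6.57 (SE 0.45, 95.2-fold, adjusted p = 4.15e-10 by limma). Trh, the precursor of thyrotropin-releasing hormone, which is high in mouse ES cells, went from 11.21, 11.22 and 10.92 to 4.22, 4.86 and 4.81. Zfp42, also called Rex1, a zinc finger marker of ES cells, went from 9.99, 9.85 and 9.86 to 3.92, 4.90 and 4.96 and fell by 5.31 (SE 0.29). NP array a held the lowest level of Tdgf1 and of Zfp42. Nr0b1, a nuclear receptor of the pluripotent state, fell by 5.57 (SE 0.32), Tcl1, a cofactor of the kinase Akt, by 5.34 (SE 0.12), and Lefty2, a secreted inhibitor of Nodal, by 4.68 (SE 0.23). Slc7a3, a carrier of basic amino acids, fell by 4.84, Morc1, a factor known from the germline, by 4.68, and Pla2g1b, a secreted phospholipase, by 5.30. Of the zinc finger genes Zfp980, Zfp979 and Zfp600, which belong to a family of near-identical copies whose probe sets may share signal, each fell, by 5.56, 4.96 and 4.93.

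**Figure D1:**
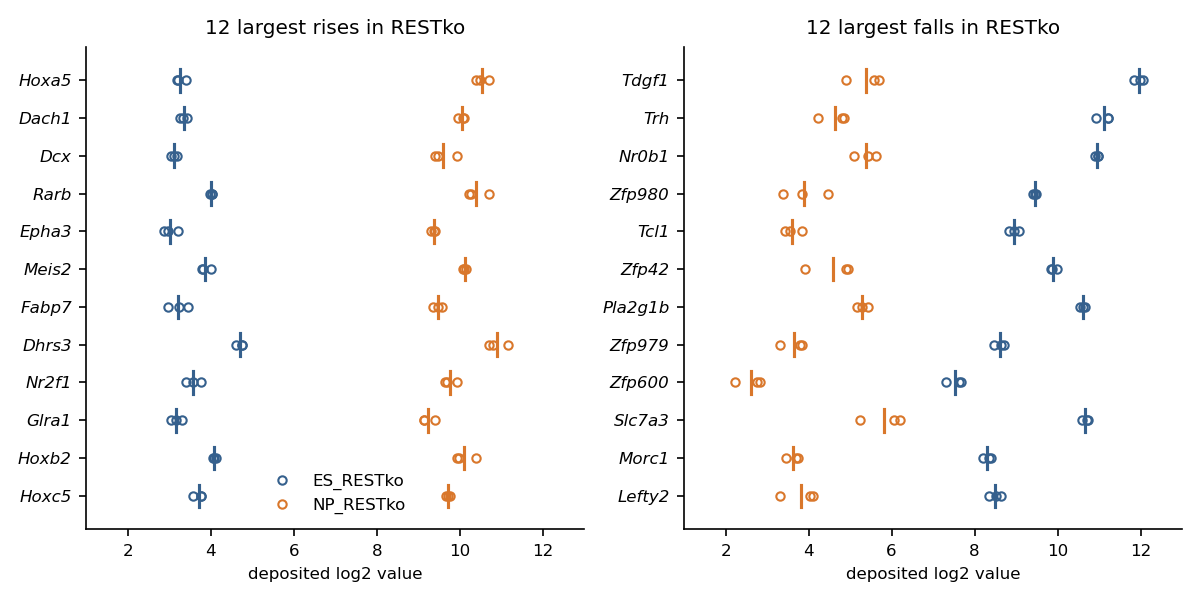
Log2 expression levels (horizontal axis) of the 12 genes with the largest rise and the 12 with the deepest fall from ES cells to NP in RESTko cells. Each point is an array and each bar the mean of 3 arrays; no ES point overlaps an NP point of the same gene, and Hoxa5 moves from a mean of 3.27 to 10.52.

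The network of the pluripotent state went down as a group. Of 33 measured genes of naive pluripotency, 32 fell, 31 of them at least 2-fold against 7.38% of all genes; the exception, the adhesion gene Jam2, had a step of -0.29 (adjusted p = 0.0999 by limma). The group's median step was -3.11, or -2.86 without NP array a, against -0.043 over all genes. Its median level was 9.49, 9.47 and 9.43 on the ES arrays and 5.63, 6.51 and 6.34 on the NP arrays, lowest on NP array a. Pou5f1 fell by 4.25 (SE 0.50), Nanog by 3.33 (SE 0.55), Esrrb, an orphan nuclear receptor of ES cells, by 3.80, and Klf4, a zinc finger factor of the network, by 2.98. On the NP arrays Pou5f1 and Nanog were still far above the lowest 25% of genes, which ended at 3.76. In RNA from a whole culture, fewer cells of a type and less RNA per cell cannot be told apart.

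Genes of the primed epiblast, the later pluripotent state, divided: 7 of 14 rose and 5 fell. The list's median step of 0.25 turned negative with quantile normalization and with the medians subtracted. Otx2, a homeobox factor of epiblast, forebrain and midbrain, fell by 4.09 (SE 0.19), and Dnmt3b, a de novo DNA methyltransferase, by 2.87. Zic2, a zinc finger factor of the neural plate, rose by 2.63, and Sall2 by 2.00. Of 21 germline and meiosis genes 17 fell and 3 rose. Sycp3, of the axis of meiotic chromosomes, fell by 3.05 and Ddx4, a germ cell RNA helicase, by 2.61, whereas Stra8, a retinoic acid target that starts meiosis in germ cells, rose from 4.26, 4.31 and 4.38 to 8.67, 8.46 and 8.17. Every NP array thus lay above every ES array for Stra8, with a step of 4.12 (SE 0.18).

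Genes of neural progenitors and radial glia rose as a group. Of 34 measured members 29 rose, 24 at least 2-fold against 11.8% of all genes, and 2 fell, with a median step of 1.73. Pax6, the homeobox factor that marks radial glia, was at 4.61, 4.72 and 4.55 in ES cells and at 8.86, 8.95 and 8.91 in NP. The stages did not overlap for Pax6, whose step was 4.28 (SE 0.14). Ednrb, an endothelin receptor, rose by 5.49 (SE 0.23), and Ptn, the growth factor pleiotrophin, by 4.32 (SE 0.14). Nes, the intermediate filament nestin, rose by 2.92, Sox1, an early neural plate factor, by 0.76, and Hes5, a Notch target of progenitors, by 1.90. Both falls were small: Sox2, which ES cells and progenitors share, fell by 0.99 and stayed at 10.13 in NP, and Tnc, a matrix glycoprotein, fell by 0.51. Nr2e1, Rax and Six3, which are factors of the most anterior brain and eye, were not called, with steps of 0.17, -0.12 and -0.0036.

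Proneural and neurogenic transcription factors rose further. In this group 31 of 36 members rose, 26 at least 2-fold, and 3 fell, and the median step was 2.62. Myt1, a zinc finger factor of neuronal commitment, stood at 3.61, 3.77 and 3.66 in ES cells and at 9.36, 9.04 and 9.06 in NP, a step of 5.47 (SE 0.16). Lhx1, a LIM-homeobox factor of spinal interneurons, rose by 4.93 (SE 0.26), Pou3f2, also called Brn2, by 4.57 (SE 0.18), Neurod4, a basic helix-loop-helix factor, by 4.54 (SE 0.15), and Prdm8 by 4.27 (SE 0.19). The only member with a 2-fold fall was Eomes, which also marks mesoderm and endoderm, at -1.92.

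Genes of neurons in general rose by the progenitor stage. Of 35 measured members, 27 rose, 25 at least 2-fold, and 4 fell, 3 of them at least 2-fold. The median level of the group was 6.67, 6.59 and 6.39 on ES arrays and 8.93, 8.60 and 8.53 on NP arrays, and the median step was 1.99, or 1.87 without NP array a, which was the highest. Besides Dcx, the RNA-binding proteins Celf3 and Elavl4 rose by 4.18 and 3.85, the endosomal protein Nsg1 by 3.92, and Nefm, a neurofilament subunit, by 3.62. Tubb3, a neuronal tubulin, rose by 1.99. The neuron-enriched genes Bex1, Prph (peripherin) and Thy1 instead fell by 2.06, 1.64 and 1.13, and Mapt, which encodes tau, had a step of 0.33 (adjusted p = 0.169 by limma).

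Axon guidance and adhesion genes rose almost throughout. Here 35 of 37 rose, 31 at least 2-fold, and 1, the semaphorin receptor Nrp2, fell by 0.36, a call lost on leaving out single arrays; Ntn1, which encodes netrin 1, was not called, at 0.11. The median step was 2.19, or 1.85 without NP array a. After Epha3, Robo3, a receptor of axons that cross the midline, rose by 4.55 (SE 0.21), and Dcc, the netrin receptor, by 4.44 (SE 0.16). Celsr2, an adhesion receptor of planar polarity, rose by 3.78, and Nrcam, a cell adhesion molecule of axons, by 3.69.

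Synaptic and secretory genes rose less evenly. Of 37 genes of synaptic vesicles and their release, 23 rose, 13 at least 2-fold, 3 fell, and the median step was 0.48. Syt1, the calcium sensor of transmitter release, was at 4.27, 4.33 and 4.10 in ES cells and at 8.37, 7.48 and 7.44 in NP, with no overlap and a step of 3.53 (SE 0.27). Rab3c, a small GTPase of vesicles, rose by 2.87, and Syt11 by 2.56. Among 30 genes of dense-core granules, which store peptides, 14 rose and 4 fell; their median step of 0.19 turned negative with the medians subtracted. Cadps, a priming factor of these granules, went from 3.93, 3.80 and 3.59 to 9.50, 8.97 and 8.85, a step of 5.34 (SE 0.19). Cpe, a carboxypeptidase that trims prohormones, rose by 3.77, the somatostatin gene Sst by 3.68 and the granin Chgb by 3.03, opposite to the fall of Trh.

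Receptor and channel genes followed the same pattern of rises with few falls. For voltage-gated channels 17 of 28 rose and 3 fell (median step 0.64, or 0.50 without NP array a). The rises were led by the calcium channel genes Cacna1h and Cacna2d2 at 2.51 and 2.44 and the sodium channel Scn3a at 2.27. Of 22 glutamate receptor and transporter genes 11 rose and 3 fell (median step 0.37); Gria2, the AMPA receptor subunit that limits calcium entry, rose by 4.58 and Grik2, a kainate receptor subunit, by 3.32. The GABA and glycine group had 11 of 18 rises and 1 fall, and a median step of 1.44, or 1.23 without NP array a. Gad2, which makes GABA, rose by 3.11, and Slc6a5, the neuronal glycine transporter, by 3.07. Among 23 cholinergic and monoamine genes 13 rose and 4 fell (median step 0.73). The nicotinic receptor subunits Chrna3, Chrna5 and Chrnb4, neighbours in the genome, rose by 5.0 (SE 0.15), 4.59 (SE 0.21) and 3.21 (SE 0.13).

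**Figure D2:**
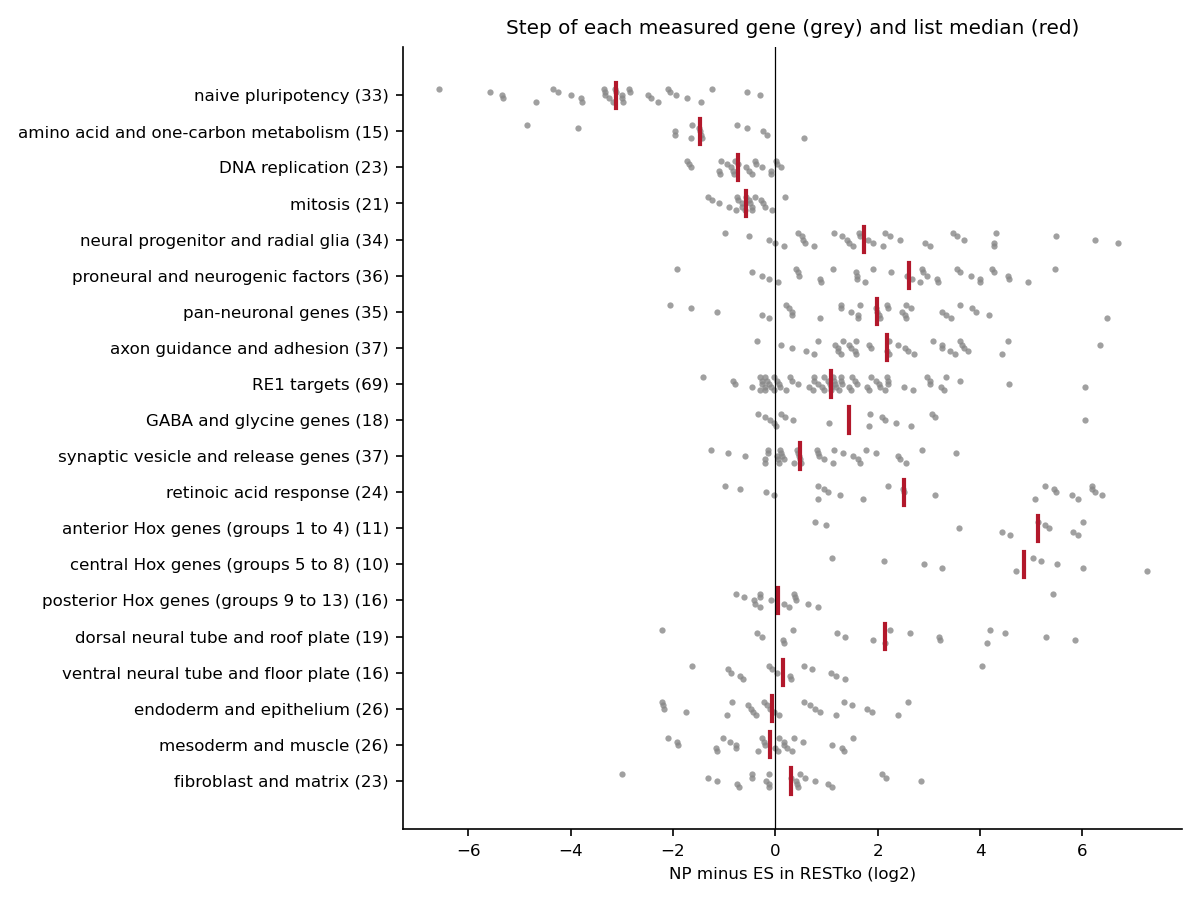
Steps from ES cells to NP in RESTko cells (log2, horizontal axis) for the members of 20 gene lists. Grey points are genes and red marks list medians, which run from -3.11 for naive pluripotency to 5.13 for the anterior Hox genes.

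Retinoic acid response genes rose as a group: 20 of 24 measured members were called higher, 17 of them at least 2-fold, and 2 fell, with a median step of 2.51. After Rarb, Dhrs3, Meis2 and Nr2f1, Meis1, a homeobox partner of Hox proteins, was at 4.56, 4.39 and 4.38 in ES cells and at 10.31, 10.36 and 10.38 in NP, a step of 5.91 (SE 0.077). Cyp26a1, the enzyme that degrades retinoic acid, was looked up for its promoter after its values were seen. Its level was 4.51, 4.52 and 4.07 on the ES arrays and 10.84, 9.73 and 9.95 on the NP arrays, highest on array a, a step of 5.80 (SE 0.21).

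Rarb and Cyp26a1 hold a match to a motif of retinoic acid receptors in the 250 bases before their transcription start, and those bases are shown because both genes were among the members with large steps. The search asked for a DR5, a direct repeat of a unit NGNTCA, in which the first base is A or G and the third G or T, with 5 bases between the repeats, on both strands; no other motif was searched at these positions except the RE1 core described further on. Sequences are RefSeq's, build GRCm38.p6, written 5′ to 3′ on the gene's strand, with the DR5 in capitals. The Rarb window is chr14:16575477-16575726 on the minus strand, and its DR5 covers bases 198 to 214 of the window and ends 36 bases before the start. The Cyp26a1 window is chr19:37697558-37697807 on the plus strand, and its DR5, on the opposite strand, covers bases 219 to 235 and ends 15 bases before the start.
Rarb: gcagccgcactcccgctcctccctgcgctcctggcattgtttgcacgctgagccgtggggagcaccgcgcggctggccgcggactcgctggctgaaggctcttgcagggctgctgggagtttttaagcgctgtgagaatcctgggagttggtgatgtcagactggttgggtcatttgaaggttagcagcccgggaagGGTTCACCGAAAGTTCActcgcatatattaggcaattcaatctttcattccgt
Cyp26a1: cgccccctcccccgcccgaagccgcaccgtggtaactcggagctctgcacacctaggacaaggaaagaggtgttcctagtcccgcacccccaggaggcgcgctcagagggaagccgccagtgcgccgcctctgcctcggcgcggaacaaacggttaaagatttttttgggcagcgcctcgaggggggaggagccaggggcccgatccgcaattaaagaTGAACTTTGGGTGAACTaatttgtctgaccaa
A DR5 of these letters was present in 29 of 32851 such windows (0.0883%), which belong to 28 gene symbols, 11 of them measured here. Of those 11 genes, 3 rose at least 2-fold (Rarb, Cyp26a1 and Syndig1, a synaptic membrane protein) and 0 fell at least 2-fold. Over all genes these shares were 11.8% and 7.38%. Of the 24 measured retinoic acid response genes 19 had a window, and Rarb and Cyp26a1 were the 2 with a match.

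The Hox genes divided by their place in the clusters, whose order follows the body axis from head to tail. All 11 measured anterior Hox genes (groups 1 to 4) rose, 9 of them at least 2-fold, with a median step of 5.13. All 10 measured central Hox genes (groups 5 to 8) rose at least 2-fold, with a median step of 4.87, or 4.62 without NP array a. Their median level was 3.76, 3.91 and 3.82 on the ES arrays and 8.79, 7.99 and 8.12 on the NP arrays. Of 16 posterior Hox genes (groups 9 to 13), 7 rose and 7 fell, 1 of them at least 2-fold; the median step of 0.048 turned negative with the medians subtracted. That gene was Hoxb9, with 5.23, 5.27 and 5.05 on the ES arrays and 11.13, 10.16 and 10.52 on the NP arrays, a step of 5.42 (SE 0.25). The next posterior gene, Hoxc9, rose by 0.84, and Hoxc10 fell by 0.77. Within the anterior group, Hoxd3, Hoxd4, Hoxb4 and Hoxc4 rose by 5.92, 5.81, 5.34 and 5.27, while Hoxb1 and Hoxd1 of the first group rose by 0.98 and 0.78, the only members under 2-fold.

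Factors that pattern the neural tube rose mainly on the dorsal side. Of 19 dorsal neural tube and roof plate genes, 14 rose, 13 at least 2-fold, and 3 fell. Their median step was 2.14, or 2.22 without NP array a. Zic1, a zinc finger factor of the dorsal tube, was at 3.54, 3.58 and 3.72 in ES cells and at 9.41, 9.43 and 9.54 in NP, a step of 5.85 (SE 0.17). Pax3, a paired-box factor of the same region, rose by 5.30 (SE 0.12), Msx3 by 4.20 (SE 0.22), and Olig3, a factor of dorsal progenitors, by 4.13 (SE 0.23). Wnt1, a signal of the roof plate and of the boundary between midbrain and hindbrain, rose by 4.48 (SE 0.15). Among 16 ventral genes 7 rose and 5 fell, and the median step of 0.16 turned negative with the medians subtracted. Irx3 rose by 4.05, while Gli1, a target of Sonic hedgehog signalling, fell by 1.63; Hhip, an antagonist of that pathway, rose by 1.36. For 22 forebrain and midbrain factors 10 rose and 4 fell, with a median step of 0.10 that turned negative with quantile normalization, with the medians subtracted and without ES array c (-0.012). Pax5 and Pax2, of the boundary between midbrain and hindbrain, rose by 2.89 and 2.77, and Otx2 fell as given above.

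Signalling genes moved differently by pathway. In the Notch pathway, through which neighbouring progenitors hold each other back from becoming neurons, 19 of 25 rose and 2 fell, with a median step of 0.78. The ligands Dll1 and Dll3 rose by 3.18 (SE 0.14) and 2.97 (SE 0.14), the feedback inhibitor Nrarp by 2.63, and Lfng, which modifies Notch receptors, by 2.19. In the Wnt pathway 20 of 29 rose and 3 fell (median step 0.89, or 1.05 without NP array a). The receptor Fzd3 was at 5.46, 5.24 and 5.43 in ES cells and at 10.35, 10.29 and 10.17 in NP, a step of 4.89 (SE 0.083), and the pathway's feedback inhibitor Nkd1 rose by 2.41. The Fgf pathway, which primes ES cells for differentiation, had 9 rises and 12 falls among 23 genes (median step -0.21). The ligands Fgf4 and Fgf17 fell by 3.0 (SE 0.088) and 2.87 (SE 0.10), and the pathway's target genes Spry4 and Etv5 by 3.73 (SE 0.15) and 3.58 (SE 0.27). The receptor gene Fgfr3 went the other way, at 2.94 (SE 0.20). Of 29 TGF-beta and BMP genes 21 rose and 7 fell (median step 0.65). The falls were led by genes of Nodal signalling: after Tdgf1 and Lefty2, Lefty1 fell by 3.98 and the ligand Nodal by 2.84. The BMP receptor gene Bmpr1b rose by 2.70.

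Genes of the dividing cell fell together. Of 23 DNA replication genes 18 fell, 6 of them at least 2-fold, and the other 5 were not called, with a median step of -0.73, or -0.62 without NP array a. Orc1, of the origin recognition complex, fell by 1.72 (SE 0.15), the initiation factor Mcm10 by 1.68 (SE 0.14), and Pola1, a subunit of the priming DNA polymerase, by 1.65 (SE 0.14). Of 21 mitosis genes 17 fell and 4 were not called (median step -0.56), among them the kinase Aurka at -1.31 and the activator of the anaphase-promoting complex Cdc20 at -1.23. Cyclins of the G1 phase and inhibitors of cyclin-dependent kinases gave 13 rises and 6 falls among 21 (median step 0.46). Ccnd2, a cyclin of progenitors, was at 6.73, 6.50 and 6.47 in ES cells and at 11.45, 11.65 and 11.59 in NP, a step of 4.99 (SE 0.15), while Ccne1 fell by 1.5. The kinase inhibitors Cdkn1c and Cdkn2c rose by 3.85 and 2.21. Among 13 p53 and apoptosis genes 7 fell and 2 rose, and Perp, a membrane protein of p53-driven death, fell by 1.80.

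Chromatin and DNA methylation genes changed in both directions. Of 15 DNA methylation and imprint control genes 5 rose and 9 fell (median step -0.38, or -0.33 without NP array a). Dnmt3l, the cofactor of de novo methylation, went from 9.98, 9.97 and 9.83 to 5.25, 6.34 and 5.93 and fell by 4.08 (SE 0.35). Tet1, which oxidises methylated cytosine, fell by 2.64 (SE 0.077), and its relative Tet3 rose by 2.65 (SE 0.11). Among 26 Polycomb and chromatin remodelling genes 17 rose and 9 fell (median step 0.50). Cbx7, the Polycomb subunit of ES cells, fell by 1.99, while Smarca2, an ATPase of the BAF remodelling complex, rose by 3.02, and Dpf3 and Actl6b, subunits of its neuronal form, by 2.09 and 1.94. Of 20 genes of REST and its corepressors 13 rose and 6 fell (median step 0.51). Beside Rest, the histone deacetylase Hdac1 fell by 0.87 and the deubiquitinase Usp7 by 1.07, while Rcor2, a CoREST protein, rose by 1.23 and Phf21a, another subunit of that complex, by 1.33.

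Imprinted and metabolic genes formed smaller groups. Of 17 imprinted growth genes 9 rose and 3 fell (median step 0.96), led by Cdkn1c, by the growth factor Igf2 at 3.46 (SE 0.20) and by Nnat at 2.86 (SE 0.16). Amino acid and one-carbon genes fell: 13 of 15, 10 of them at least 2-fold, with 1 rise and a median step of -1.46. After Slc7a3, the carrier gene Slc7a7 fell by 3.85 (SE 0.14) and the mitochondrial folate enzyme gene Mthfd2 by 1.96 (SE 0.15). For 17 glycolysis genes 3 rose and 8 fell, and the median step of -0.22 turned positive with quantile normalization; the glucose carrier Slc2a3 fell by 1.65 and Eno2, the neuronal enolase, rose by 1.40. Cholesterol synthesis genes were near the median of all genes, with 2 rises and 4 falls among 13, none 2-fold. Immediate-early genes, which respond within minutes to stimuli and handling, had 4 rises and 9 falls among 16 (median step -0.71), such as Nr4a1 at -2.20 and Fos at -1.47.

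**Figure D3:**
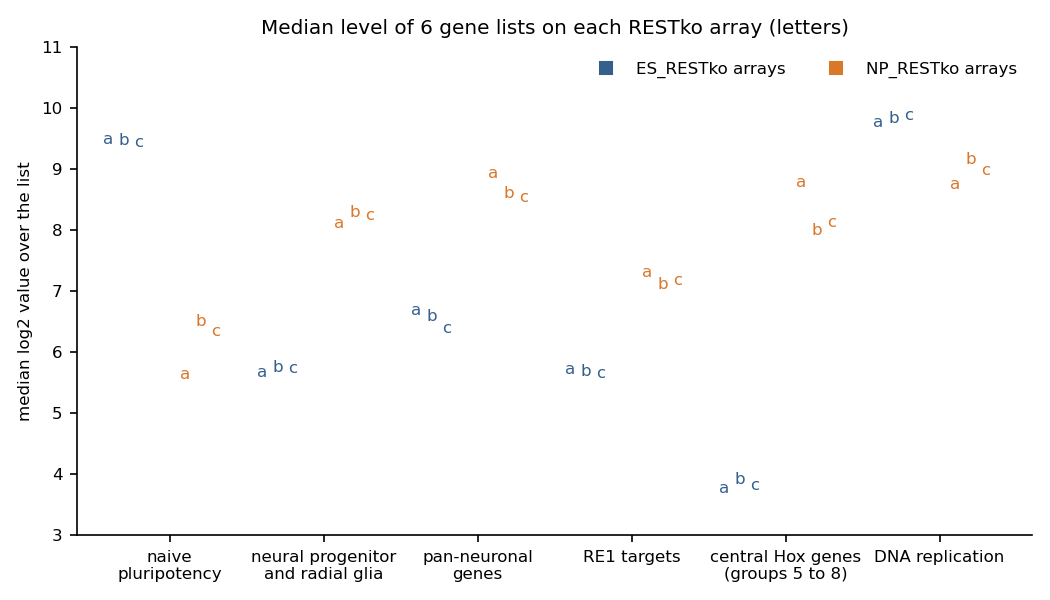
Median log2 level (vertical axis) of 6 gene lists on each of the 6 RESTko arrays, each drawn as its array letter (blue ES, orange NP). NP array a has the lowest median for naive pluripotency (5.63) and the highest for pan-neuronal genes (8.93) among the NP arrays, and ES and NP arrays do not overlap for these lists.

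Markers of other cell types were measured beside the neural genes. All 6 ES cell markers fell at least 2-fold; the range of their median level was 10.54 to 10.64 on ES arrays and 5.24 to 6.10 on NP arrays. Of 6 markers of neural progenitors 5 rose at least 2-fold (median level 6.35 to 6.37 and 8.71 to 8.88), and of 5 neuron markers 4 did (7.23 to 7.48 and 9.53 to 9.94); Stmn2 had a step of 0.33 (adjusted p = 0.0536 by limma). Of 5 endoderm markers 3 rose at least 2-fold, with a median level of 3.55 to 3.76 on ES and 5.39 to 5.88 on NP arrays. Sox17 rose by 2.60, Gata6 by 2.40 and Ttr, transthyretin, by 1.51. Afp, alpha-fetoprotein, had a step of 0.88 (adjusted p = 0.0395 by limma) that lost its call on leaving out each of 5 of the 6 arrays.

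Of 5 fibroblast markers 3 rose at least 2-fold (median level 5.04 to 5.39 and 6.28 to 6.56), Col3a1, a fibrillar collagen, by 2.17. None of 3 measured markers of mesoderm and muscle changed 2-fold (5.01 to 5.51 and 4.85 to 5.18). Of 3 neural crest markers 1 rose 2-fold, Tfap2a at 3.17 (4.94 to 5.15 and 5.79 to 6.01). Of 3 endothelial markers Cdh5 rose by 2.38, and Pecam1 and Tek, which ES cells also express, fell by 2.83 and 2.62 (6.57 to 7.17 and 5.12 to 6.08). Among 4 microglia markers Csf1r rose by 1.00 and the others did not change 2-fold (3.51 to 3.65 and 3.96 to 4.03). Of 3 astrocyte markers 0 rose, Aldh1l1 fell by 2.38, and Gfap and Aqp4 lay in the lowest 25% of genes on NP arrays (3.73 to 3.89 and 3.53 to 3.63). Of 2 oligodendrocyte markers 0 changed 2-fold (5.13 to 5.21 and 5.16 to 5.34). No marker list was at 0, since an array gives a background level for every probe set, and the part of these other cell types in the steps of other genes was not tested.

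Beyond the markers, the lists of other lineages held called genes of both directions, where 32.2% of all genes rose and 33.9% fell. The counts for mesoderm and muscle and for oligodendrocyte genes lay near these shares. Genes of mesoderm and muscle numbered 26, of which 7 rose and 10 fell; their median step of -0.10 turned positive without ES array b (0.0076). Of 23 fibroblast and matrix genes 12 rose and 7 fell, with a median of 0.31 that turned negative with the medians subtracted. Pdgfra, a growth factor receptor that mesenchyme shares with oligodendrocyte precursors, rose by 2.85, and Timp1, an inhibitor of matrix proteases, fell by 2.99. Of 17 neural crest and placode genes 8 rose and 4 fell, with a median of 0.19 that turned negative under both other scalings; Tfap2b rose by 4.20. Of 10 trophoblast genes 7 rose and 1 fell, Plac1 by 3.18. Of 12 astrocyte genes 4 rose and 6 fell, and Sparcl1, also a gene of radial glia, rose by 4.55. Of 13 oligodendrocyte genes 4 rose and 5 fell, of 12 microglia and immune genes 1 rose and 4 fell, and of 15 blood and endothelium genes 5 rose and 3 fell.

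The step in RESTko cells was set beside that in RESTwt cells to ask where they differ. No array is shared between these steps. As the number of clones is not given, genotype and other differences between the cell lines cannot be told apart here. In RESTwt cells 13375 genes were called (67.1%), 2170 of them at least 2-fold higher (10.9%) and 1352 at least 2-fold lower (6.78%). Of the genes at least 2-fold higher, 1883 were so in both genotypes, 80.4% of the RESTko list and 86.8% of the RESTwt list. Of those at least 2-fold lower 1143 were shared, 77.7% and 84.5%. Across genes, which are not independent replicates, the steps correlated at Pearson r = 0.953. Hoxa5 rose by 7.15 in RESTwt cells, Dcx by 5.92 and Rarb by 6.31, and Zfp42 fell by 5.36, against 7.26, 6.49, 6.38 and -5.31 in RESTko cells.

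The difference between the steps was tested gene by gene as the RESTko step minus the RESTwt step. It was called for 970 genes (4.87%), 461 with a more positive step in RESTko cells (2.31%) and 509 with a more negative one (2.55%), and it was at least 2-fold for 67 (0.336%) and 154 (0.772%), 221 genes in all (1.11%). Array weights raised the count to 1537, and leaving out single arrays gave 651 to 1136. Of the 970 genes, 88 also had both steps called, in opposite directions, with a rise in RESTko cells in 24 and a fall in 64. The 66 genes listed below as flagged for a called difference were refitted without each of the 12 arrays in turn. The call was kept throughout for 47 and lost on leaving out at least 1 array for 19, among them Gria2, Syn1 and Srgn.

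**Figure D4:**
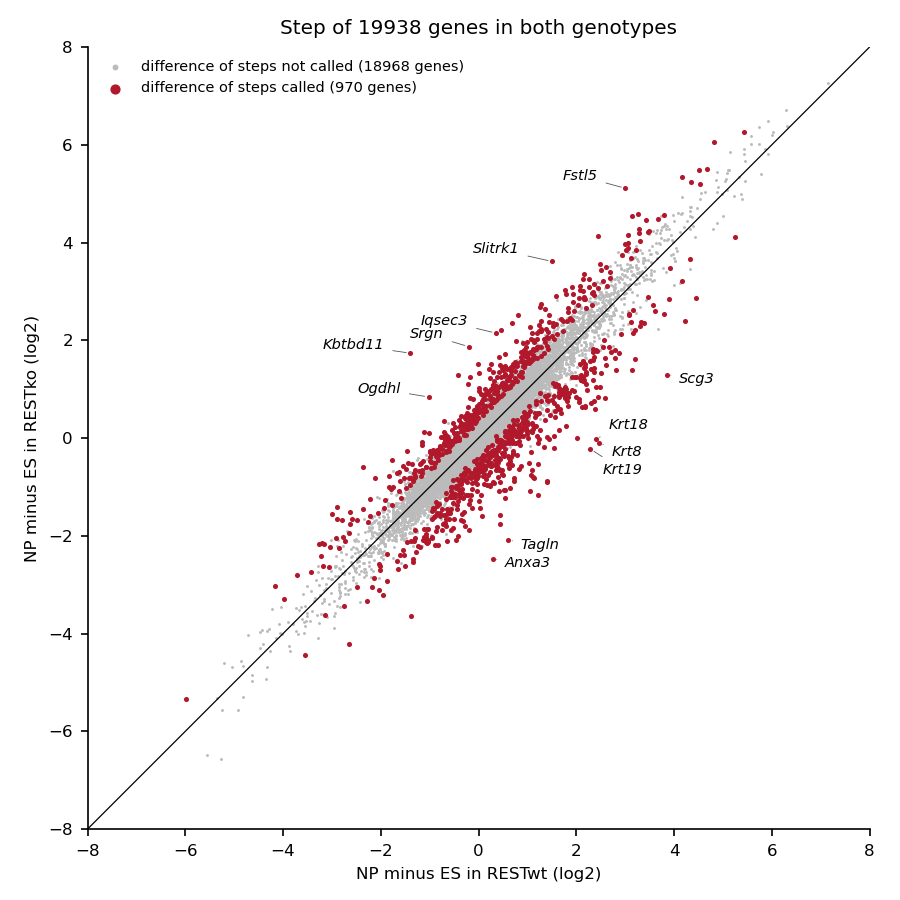
Step in RESTko cells (vertical axis, log2) against step in RESTwt cells (horizontal axis, log2) for 19938 genes, each a point; the line marks equal steps. Red points are the 970 genes whose steps differed, and 12 of them are labelled, such as Kbtbd11 at -1.40 in RESTwt and 1.74 in RESTko cells.

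The largest positive difference was that of Kbtbd11, a Kelch and BTB domain protein. In RESTko cells Kbtbd11 stood at 4.59, 4.55 and 4.64 on the ES arrays and at 6.31, 6.20 and 6.48 on the NP arrays, a rise of 1.74 (SE 0.15). In RESTwt cells it fell by 1.40, from a mean of 6.50 to 5.10. The difference was 3.13 (SE 0.22, adjusted p = 4.23e-07 by limma). Ogdhl, a relative of a citric acid cycle enzyme, also went opposite ways, from 6.93, 6.87 and 7.21 to 7.95, 7.77 and 7.81 in RESTko cells, a rise of 0.84, against a fall of 1.02 in RESTwt cells (difference 1.86, adjusted p = 9.43e-07 by limma). Slitrk1, a synaptic adhesion protein, rose by 3.61 against a step of 1.5 in RESTwt cells, Fstl5, a secreted protein related to follistatin, by 5.11 against 3.0, and Iqsec3, of inhibitory synapses, by 2.15 against 0.36. For Srgn, the proteoglycan serglycin, the steps were 1.87 and -0.20, and the difference of 2.07 (adjusted p = 0.0441 by limma) lost its call on leaving out single arrays. In the mixed-strain wildtype line, read on other arrays, Kbtbd11 rose by 3.12, the direction of RESTko cells. Slitrk1, Fstl5 and Iqsec3 rose there by 0.36, 0.92 and 0.40. Srgn was not called there, at 0.84 (adjusted p = 0.575 by limma), and Ogdhl was not measured.

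Among the largest negative differences were those of 3 keratins. Krt8, a keratin of simple epithelia, stood at 9.86, 9.68 and 8.97 on the RESTko ES arrays and at 9.36, 9.43 and 9.41 on the NP arrays. The stages overlapped, with a step of -0.11 (SE 0.27, adjusted p = 0.746 by limma), whereas in RESTwt cells Krt8 rose from 7.90 to 10.37. The difference was -2.57 (SE 0.39, adjusted p = 0.000719 by limma). Its partner Krt18 had a step of -0.018 in RESTko cells against 2.40, and Krt19, another keratin, -0.23 against 2.29. All 3 keratins had higher ES means in RESTko than in RESTwt cells, at 9.51 and 7.90 for Krt8, 9.02 and 7.47 for Krt18, and 8.46 and 7.21 for Krt19. Tagln, an actin-binding protein of smooth muscle, fell by 2.09 (SE 0.23) in RESTko cells, from a mean of 7.70 to 5.62. In RESTwt cells Tagln rose by 0.61, from 6.22 to 6.83. Anxa3, a membrane-binding annexin, had steps of -2.47 in RESTko and 0.29 in RESTwt cells, from ES means of 8.24 and 5.95. In the mixed-strain wildtype line Anxa3 and Tagln fell by 3.06 and 2.54, the direction of RESTko cells. Krt8, Krt18 and Krt19 rose in that line by 0.70, 1.26 and 0.75, the direction of RESTwt cells.

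On the endoderm and epithelium list the difference was called for 8 of 26 genes in the negative direction and for 1 in the positive direction, against 2.55% and 2.31% of all genes. The list's median step was -0.062 in RESTko and 0.64 in RESTwt cells, and the former turned positive with quantile normalization (0.083) and without ES array a or b (0.076 and 0.033). In RESTko cells the adhesion genes Epcam and Cdh1 fell by 2.21 (SE 0.23) and 2.20 (SE 0.22), and Esrp1, an epithelial splicing factor, by 2.18 (SE 0.21), against falls of 1.21, 1.16 and 0.88 in RESTwt cells; of these, the difference was called for Esrp1.

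On the neural lists the difference was called in both directions, against 2.31% of all genes in the positive and 2.55% in the negative direction. Positive and negative calls numbered 7 and 3 of 37 axon guidance genes, 6 and 2 of 30 dense-core granule genes, 3 and 1 of 37 synaptic vesicle genes, 2 and 1 of 35 genes of neurons in general, 1 and 1 of 36 proneural factors, and 3 and 2 of 34 genes of progenitors and radial glia. For receptors and channels they numbered 6 and 0 of 28 voltage-gated channel genes, 2 and 1 of 22 glutamate genes, 2 and 0 of 18 GABA and glycine genes, and 3 and 0 of 23 cholinergic and monoamine genes. The glial lists had 1 and 0 of 12 astrocyte and 0 and 1 of 13 oligodendrocyte genes. Olig3 rose by 4.13 in RESTko and by 2.45 in RESTwt cells (adjusted p = 0.00561 for the difference, by limma), Glra2, a glycine receptor subunit, by 2.36 and 0.69 (adjusted p = 0.00101), and Sparcl1 by 4.55 and 3.14. Patterning lists had 5 positive and 0 negative calls of 19 for the dorsal and 0 and 2 of 16 for the ventral neural tube, 0 and 0 of 11 for anterior and 2 and 0 of 10 for central Hox genes. Naive pluripotency had 2 and 1 of 33, and retinoic acid response 2 and 1 of 24. Primed epiblast had 3 and 4 of 14, and neural crest and placode 3 and 2 of 17. The p53 and apoptosis list had 0 and 4 of 13, and the Fgf pathway 1 and 4 of 23. Not every list is given here. Imprinted genes went both ways, with 5 positive and 4 negative differences among 17, such as -1.58 for Nnat.

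The list of RE1 targets, genes known for an RE1 element that REST binds, holds 69 measured members. In the RESTko step 48 of them rose, 38 at least 2-fold against 11.8% of all genes, and 8 fell. The median step was 1.10 in RESTko cells, 1.09 without NP array a, and 0.61 in RESTwt cells. Most of these genes thus rose on the way to NP in cells labelled as lacking REST. The list was drawn up with results of these data known, so its direction is not independent evidence. The members that rose most were Glra1, Gria2, the neurofilament subunits Nefm and Nefl at 3.62 and 3.34, and Brsk2, a kinase of neuronal polarity, at 3.30. Only Vgf, a secreted neuropeptide precursor, fell at least 2-fold, by 1.40.

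The difference between the steps was called for 21 of the 69 RE1 targets in the positive direction, against 2.31% of all genes, and for 3 in the negative direction, against 2.55%. Members with a positive difference started from like or from unlike ES levels. Th, tyrosine hydroxylase of catecholamine synthesis, went from a mean of 4.65 to 6.86 in RESTko cells and from 4.69 to 5.15 in RESTwt cells (steps 2.21 and 0.46, adjusted p = 8.48e-05 for the difference by limma). Mmp24, a membrane metalloprotease, rose from 4.84 to 7.53 and from 4.78 to 6.04 (adjusted p = 0.000144). Gria2 started at 2.83 and 2.82 and reached 7.40 and 6.09 (adjusted p = 0.0397, up to 0.111 on leaving out single arrays). In Th and Mmp24 the ES means of both genotypes lay close together and the NP means apart, whereas both ES means of Gria2 lay under 3.79, the upper limit of the lowest 25% of genes on RESTko ES arrays, so its ES levels were not compared.

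Other members with a positive difference started higher in RESTko than in RESTwt ES cells. Cplx1, complexin of transmitter release, went from 7.10 to 7.55 in RESTko and from 5.41 to 5.14 in RESTwt cells, and Nmnat2, an enzyme of NAD synthesis in axons, from 7.40 to 7.69 and from 5.84 to 5.50. Pcsk1, a prohormone convertase, went from 5.98 to 6.08 and from 5.15 to 4.13. The RESTko and RESTwt ES means were 4.63 and 3.91 for Gprin1, and 6.10 and 5.46 for Xkr7.

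All 3 members with a negative difference also had higher ES means in RESTko cells. Scg3, a granin-binding protein of secretory granules, stood at 8.20, 8.08 and 8.26 on the RESTko ES arrays and at 9.61, 9.41 and 9.41 on the NP arrays, a step of 1.30 (SE 0.13). In RESTwt cells Scg3 started from a mean of 3.39 and reached 7.23, a step of 3.85, so its smaller rise in RESTko cells began from a higher level and ended at a higher one. Syp, the vesicle protein synaptophysin, went from 8.07 to 7.87 in RESTko cells (step -0.20, adjusted p = 0.106 by limma) and from 5.35 to 6.89 in RESTwt cells. Snap25, a membrane fusion protein of synapses, went from 6.25 to 7.74 and from 4.12 to 6.71. Syn1, synapsin, had steps of 0.029 in RESTko and -0.64 in RESTwt cells, a difference that lost its call on leaving out single arrays.

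**Figure D5:**
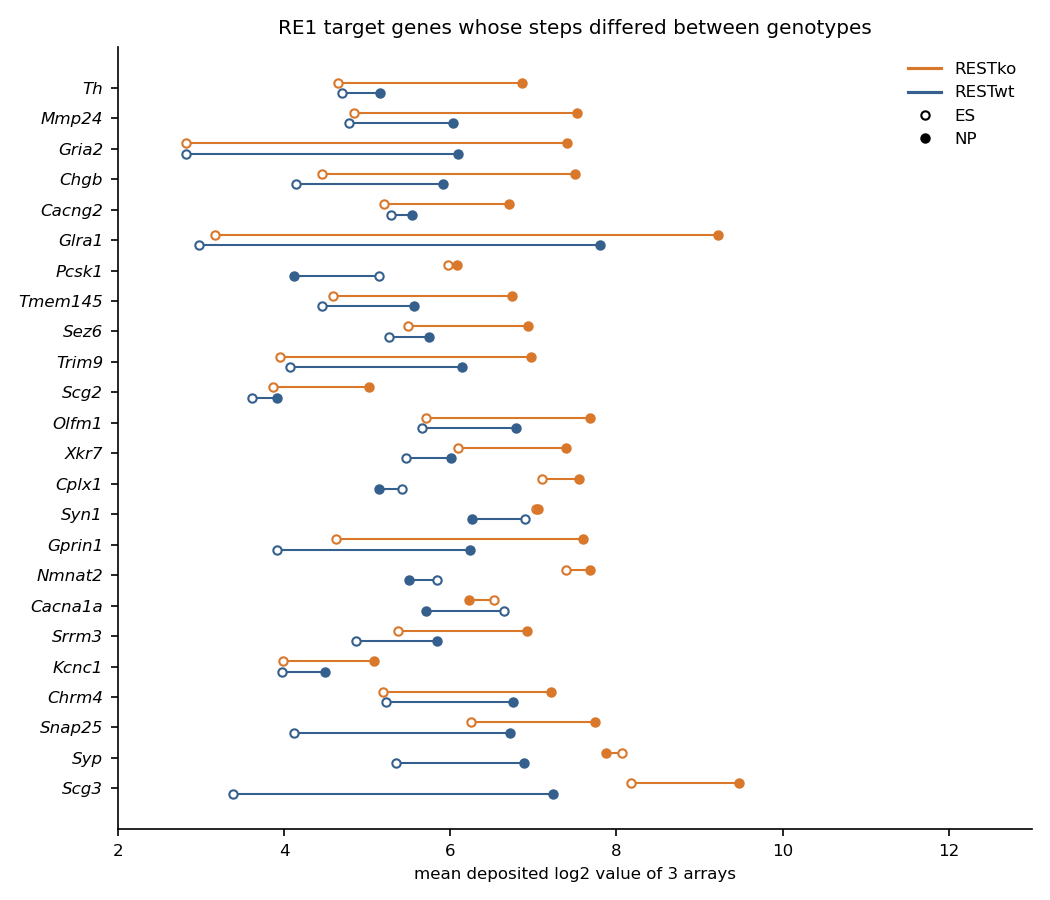
Mean log2 level (horizontal axis, 3 arrays each) of the 24 RE1 targets whose step differed between genotypes; open symbols are ES cells, filled symbols NP, orange RESTko and blue RESTwt. Scg3 starts at 8.18 in RESTko and 3.39 in RESTwt ES cells, whereas Th starts at 4.65 and 4.69.

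The RE1 core is shown for Gria2 and Ogdhl, 2 of the genes with both a match and a called difference between the steps. The call for Gria2 was lost on leaving out single arrays, and Ogdhl had a lower ES mean in RESTko cells, as given above. The search asked for AGCACCNNGGACA, where N is any base, the central stretch of the RE1 element, on both strands of the 250 bases before the start, from RefSeq, build GRCm38.p6, written 5′ to 3′ on the gene's strand with the match in capitals. In Gria2 the window is chr3:80802836-80803085 on the minus strand, and the match, on the opposite strand, covers bases 82 to 94 and ends 156 bases before the start. In Ogdhl it is chr14:32321769-32322018 on the plus strand, and the match covers bases 149 to 161 and ends 89 bases before the start.
Gria2: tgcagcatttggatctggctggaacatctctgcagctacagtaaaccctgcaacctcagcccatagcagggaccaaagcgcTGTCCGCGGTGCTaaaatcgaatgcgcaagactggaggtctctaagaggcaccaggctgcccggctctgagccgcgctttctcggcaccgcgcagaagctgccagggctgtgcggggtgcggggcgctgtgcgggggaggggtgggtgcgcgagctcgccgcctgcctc
Ogdhl: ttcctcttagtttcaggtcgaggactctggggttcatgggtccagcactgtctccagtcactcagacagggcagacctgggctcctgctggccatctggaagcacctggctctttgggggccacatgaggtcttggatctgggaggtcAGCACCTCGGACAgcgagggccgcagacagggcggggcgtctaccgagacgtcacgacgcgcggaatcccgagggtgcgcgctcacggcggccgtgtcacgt
These letters were present in 19 of 32851 windows (0.0578%), of 18 gene symbols, 15 of them measured. Of the 15, 4 rose at least 2-fold in RESTko cells (Gria2, Gad2, the axon receptor Robo2 and Dner, a Notch-related membrane protein of neurons) and 0 fell at least 2-fold. Over all genes these shares were 11.8% and 7.38%. Of the 69 measured RE1 targets 50 had a window and 1, Gria2, had a match; RE1 elements also lie outside such windows and in other spellings, which were not searched.

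Probe sets for microRNA loci read the precursor transcript, not the mature molecule. Of 21 measured loci 9 rose, 8 at least 2-fold, and 6 fell; the median step of 0.10 turned negative with the medians subtracted. The mature sequences of loci that rose are shown with their seed, bases 2 to 8, in capitals, since the seed chooses the targets (RefSeq, build GRCm38.p6, 5′ to 3′). Mir100, Mir10a and Mir10b were added to the 5 loci named by rule after their values were seen, for their shared seeds.
miR-9-5p: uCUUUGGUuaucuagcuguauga
miR-219a-5p: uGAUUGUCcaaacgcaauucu
miR-99a-5p: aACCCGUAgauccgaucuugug
miR-100-5p: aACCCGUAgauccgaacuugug
miR-10a-5p: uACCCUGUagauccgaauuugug
miR-10b-5p: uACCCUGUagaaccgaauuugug
Mir219a-2, the locus of miR-219, which is known from oligodendrocyte formation, was at 3.91, 4.14 and 3.97 in ES cells and at 8.45, 8.62 and 8.10 in NP, a step of 4.38 (SE 0.14). Mir99a and Mir100, whose products share a seed, rose by 3.42 (SE 0.16) and 1.69 (SE 0.11). Mir10a and Mir10b, which lie in Hox clusters and share another seed, rose by 3.06 (SE 0.16) and 4.73 (SE 0.13). The loci of miR-9 and miR-124, microRNAs of neural progenitors and neurons, rose by 1.91 (SE 0.22) for Mir9-1, 2.09 (SE 0.14) for Mir9-3 and 2.03 (SE 0.093) for Mir124a-2. For all 8 loci the 3 NP arrays lay above the 3 ES arrays, and the difference from the RESTwt step was not called.

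The next stage, the step from NP to TN in RESTko cells, shares the NP arrays with the step described here, so its values are set beside it without a comparison. Pax6 had mean levels of 4.63 in ES cells, 8.91 in NP and 5.57 in TN, and Fabp7 of 3.22, 9.47 and 10.71. Hoxa5 had 3.27, 10.52 and 10.78, and Rarb 4.01, 10.39 and 7.99. Dcx had 3.11, 9.60 and 10.51, and Syt1 4.24, 7.76 and 11.09. The progenitor factor Pax6 and the receptor gene Rarb thus stood highest in NP, and the neuronal genes Dcx and Syt1 highest in TN. Zfp42 had 9.90, 4.59 and 4.01, and Tdgf1 11.96, 5.39 and 5.82.

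The same step in the mixed-strain wildtype line was measured on other arrays, in 2 against 2, and normalized apart, so levels are not compared. There 7071 of 18194 genes were called (38.9%), of which 1716 were at least 2-fold higher (9.43%) and 1499 at least 2-fold lower (8.24%). Over 16553 genes measured on both array types, 2230 rose at least 2-fold in RESTko cells, and 1228 of these did so in the mixed-strain line, 55.1% of the RESTko list and 73.6% of the other. Of 1338 that fell at least 2-fold, 825 were shared (61.7% and 57.0%). Across genes the steps correlated at Pearson r = 0.785. Rest fell by 2.08 in that line, Hoxa5 had a step of 7.84, Dcx of 4.40 and Zfp42 of -6.60. The lines differ in strain, REST genotype and array type, which cannot be told apart here.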

How the data were processed

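The deposited table of 18 arrays holds log2 expression values that the authors made from Affymetrix whole-transcript arrays; the submitters' processing notes name oligo 1.14.0. The normalization, and whether stages were normalized together, is not given in the sources used here, nor is a scan date or other batch, so a batch was not tested. In the numbering of the samples, the NP arrays of both genotypes stand apart from the ES arrays, which adjoin the RESTko and RESThet TN arrays. Stage and a possible batch along that numbering therefore cannot be told apart. A second table of 6 arrays of the mixed-strain line was fitted apart. Of 35556 probe sets 21789 have 1 gene symbol in the platform annotation, 1621 several and 12146 none (other array type: 45101, 34958, 932 and 9211). A gene was taken as its single-symbol probe set with the highest mean, giving 19938 genes (18194 on the other array type); of 999 genes with several probe sets 57 were called in both directions, none of them named here.

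Group means of the 6 groups were fitted with limma 3.58.1 (lmFit, eBayes; R 4.3.3), two-sided, with Benjamini-Hochberg adjustment over all genes, and the procedure was tested on simulated data. Replicate letters were not taken as pairs. The members and the 47 gene lists were chosen with earlier results of these data known, and the lists got no test of their own.

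Named were Rest; the 12 largest rises and 12 deepest falls among called genes whose arrays do not overlap, without predicted genes, olfactory and vomeronasal receptors, small RNAs and histone genes; the 6 largest differences between the steps in each direction; up to 5 called members of each list with the largest step, or up to 2 where none was called; and a set of cell type markers. Bex1, Cplx1, Cyp26a1, Hoxb1, Hoxd1, Jam2, Klf4, Mapt, Mir100, Mir10a, Mir10b, Mmp24, Nr2e1, Nrp2, Ntn1, Pcsk1, Prph, Rax, Six3, Snap25, Sox2, Syn1, Syp, Th, Thy1, Tnc and Vgf, the further genes with a promoter match (Dner, Robo2 and Syndig1) and the other RE1 targets named for a difference between the steps were named after their values were seen. Alternatives were quantile normalization, subtraction of each array's median, leaving out the 30% dimmest genes, the mean over probe sets, array weights, a replicate block, a fit of the compared groups alone and leaving out each array.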

Additional observations from a re-analysis of the deposited data

Results flagged for a closer look

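The results in this section were picked out because the test of the difference itself, the step in RESTko cells minus the step in RESTwt cells, was called by limma over all genes. A positive value means a more positive step in RESTko cells, and no explanation was tested.

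Among genes with the largest differences, the value was 3.13 for Kbtbd11, 2.11 for Slitrk1, 2.11 for Fstl5, 2.07 for Srgn, 1.86 for Ogdhl and 1.79 for Iqsec3. In the negative direction it was -2.76 for Anxa3, -2.70 for Tagln, -2.57 for Krt8, -2.52 for Krt19 and -2.41 for Krt18. Of the genes with the largest steps, it was 0.83 for Meis2, 1.23 for Glra1 and 0.65 for Tcl1.

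On the list of RE1 targets, members linked to synapses and release had values of 0.72 for Cplx1, 0.67 for Syn1, -1.74 for Syp, -1.11 for Snap25, 0.96 for Trim9 and 0.65 for Gprin1. Members of dense-core granules and peptide processing had -2.55 for Scg3, 0.85 for Scg2, 1.27 for Chgb and 1.12 for Pcsk1; Cadps, of the granule list alone, had 1.17. Receptors and channels had 1.31 for Gria2, 1.25 for Cacng2, 0.63 for Cacna1a, 0.58 for Kcnc1 and 0.49 for Chrm4. The remaining members had 1.75 for Th, 1.42 for Mmp24, 1.05 for Tmem145, 0.96 for Sez6, 0.84 for Olfm1, 0.74 for Xkr7, 0.63 for Nmnat2 and 0.58 for Srrm3.

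Neural genes of other lists had 1.27 for Zic2, 0.97 for Myt1, 0.84 for Elavl4, 0.83 for Hoxb5, 0.67 for Hoxb6, 0.82 for Wnt1, 0.73 for Pax5, 1.68 for Olig3 and 0.92 for Tfap2b. Receptor, channel and glial genes had 1.21 for Scn3a, 1.67 for Glra2, 1.10 for Chrna4, 1.41 for Sparcl1 and -0.59 for Ugt8a. Genes of epithelium, trophoblast and endothelium had -1.46 for Grhl2, -1.30 for Esrp1, -1.14 for Foxa1, -1.23 for Gata3, -1.80 for Krt7 and -0.74 for Cdh5. Imprinted genes had 0.86 for Dlk1, 0.64 for Cdkn1c, -0.85 for Plagl1 and -1.58 for Nnat, and signalling, p53 and methylation genes -0.72 for Fgf17, -1.12 for Perp, -0.99 for Plk2 and 0.41 for Tet1. Of these 66 values, 43 kept their call under every alternative run.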

How the results depend on the processing

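As deposited, 13165 genes were called in the RESTko step, 970 in the difference between the steps and 7071 in the mixed-strain step. Quantile normalization gave 13101, 947 and 7093, subtraction of array medians 16121, 901 and 7444, the dimmest genes left out 10672, 1069 and 6786, the mean over probe sets 13181, 961 and 6966, and array weights 13734, 1537 and 7521; 1537 is over 1.5 times the 970 called without weights. Asking for a 2-fold change left 3814 genes in the RESTko step. Subtraction of medians gave 3977 rises and 12144 falls (24.7% higher against 48.7% as deposited), of which 1531 and 2797 were at least 2-fold, and in the mixed-strain step 38.5% higher against 51.2%. Leaving out single arrays gave 12259 to 12512 genes for the RESTko step, 651 to 1136 for the difference and 5335 to 5839 for the mixed-strain step. With the replicate letter as a block over all groups the counts were 13115, 949 and 7095, and in the compared groups alone 13007, 785 and 7289 (13345, 851 and 7368 there without the block); deviations from the group means of same-lettered RESTko ES and NP arrays correlated at -0.0117, -0.134 and -0.0212, and of same-lettered RESTko and RESTwt NP arrays at 0.399, 0.309 and 0.00667. Of the latter, arrays a and b correlated best with their own letter and array c did not, so the letters were not taken as pairs, and structure shared by NP arrays of 1 letter is not excluded for the difference between the steps.

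Among named genes, the step kept its direction and its side of the threshold in 3981 of the values recomputed, lost its call in 24, gained it in 38, and changed sign in 33 for genes not called as deposited. The step of Mbp, a myelin gene called at 0.29 as deposited, was -0.016 (adjusted p = 0.885 by limma) with quantile normalization and -0.052 (adjusted p = 0.609) with medians subtracted. The steps of Olig1 and Col1a2 lost their call without ES array b (adjusted p = 0.0901) and ES array c (0.0601), that of Nrp2 without ES arrays a or b or NP arrays b or c, and that of Afp without each array but NP array b. For the 66 differences between steps the call was kept in 1135 values and lost in 185, with no change of sign; Gria2, Scn3a, Cdkn1c and Chrm4 lost it on leaving out each of 10 of the 12 arrays. List medians moved by more than the spread between arrays in 45 of 47 lists with medians subtracted, in 28 with quantile normalization and in 13 without the dimmest genes, while without NP array a 5 moved. The cause of these changes was not tested. Levels near background limit what a fold change shows: the step of a gene that is dim in ES cells understates its rise.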

Other observations

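Genes of the X chromosome had a negative median step in RESTko cells, which was looked at after the values were seen. All chromosome medians and shares here cover only genes whose mean level over all arrays was above that of the median gene. They are thus not to be read against the shares and the median step over all genes. Over 335 such X genes the median step was -0.22 in RESTko and -0.36 in RESTwt cells. The medians of the autosomes lay between 0.026 and 0.13 in RESTko cells. On the X, 32.5% of these genes rose and 49.0% fell in RESTko cells. By autosome, 38.5% to 46.7% rose and 32.2% to 38% fell. The median level of X genes minus that of autosomal genes was 0.45, 0.50 and 0.46 on the RESTko ES arrays a, b and c and -0.077, -0.0014 and 0.0071 on the NP arrays. In RESTwt cells it was 0.60, 0.69 and 0.74 on ES arrays and -0.019, -0.0079 and -0.014 on NP arrays. Xist, the RNA that coats an inactive X chromosome, stood at 5.04, 4.64 and 5.37 on the RESTko ES arrays and at 5.77, 7.91 and 8.06 on the NP arrays, and NP array a was the lowest of these. In RESTwt cells Xist stood at 4.72, 4.61 and 4.60 and at 7.85, 8.34 and 8.76. On NP array a Xist was thus nearer to the ES arrays than to the other NP arrays, while the X genes were at the autosomal level there as on NP arrays b and c.

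Of the 88 genes whose steps went opposite ways, a few were picked after their values were seen and stand for no group. Anxa1, a phospholipid-binding annexin, had a step of -1.16 in RESTko and 1.21 in RESTwt cells, Itga3, a laminin receptor of epithelia, of -0.80 and 1.11, Myof, a membrane repair protein, of -0.82 and 1.13, and Cldn6, a tight junction protein, of -1.02 and 0.65. Acta2, smooth muscle actin, had -0.88 and 0.72, and Igfbp3, which binds insulin-like growth factors, -0.90 and 1.41. Myc, the growth regulator, had -1.07 and 0.53. In the other direction, Epha4, an ephrin receptor, rose by 1.29 in RESTko cells and had a step of -0.42 in RESTwt cells. These genes also differed in their ES means. Anxa1 started at 7.17 in RESTko and 5.97 in RESTwt cells. Itga3, Myof, Cldn6, Acta2, Igfbp3 and Myc likewise started higher in RESTko cells. Epha4 started lower there, at 6.87 against 8.22.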
